A study of Platichthys stellatus with 16 samples.

Results

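The genes described here are the heat shock proteins, chaperonins and DnaJ proteins of the starry flounder, Platichthys stellatus, a North Pacific flatfish. They were chosen by annotation: 83 of the 16270 assembled genes (features) had a closest Swiss-Prot protein whose description named heat shock, T-complex protein 1, DnaJ homolog or chaperonin. The 83 features carried 59 distinct gene symbols. RNA-seq libraries came from female brain, male brain, female liver, male liver, female gonad, male gonad, female muscle and male muscle of fish 3 years old, with 2 libraries in each of these 8 groups. No treatment was named. The series text names pituitary where the sample labels name muscle, and the sample labels were followed. Which fish gave which library is not given, so the p-values below measure the spread between these libraries, which may be technical. In such bulk tissue, fewer cells of a type and less RNA per cell cannot be told apart.

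Molecular chaperones bind unfolded or partly folded proteins and help them reach, or return to, their working shape. HSP70 proteins bind short exposed stretches of a client, DnaJ proteins (also called HSP40) bring clients to HSP70 and trigger its ATP hydrolysis, and HSP110 proteins such as HSPA4 exchange its nucleotide. HSP90 acts later on signalling and muscle clients, with AHSA1 as an activator of its ATPase, while the barrel-shaped TRiC complex folds actin and tubulin and the HSPD1 and HSPE1 chaperonin serves mitochondria.

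The 83 features fell into 12 families by name. There were 5 HSP90 features, 3 of the HSP90 activator AHSA1, 10 HSP70, 2 HSP110, 1 small heat shock protein, 3 of the mitochondrial chaperonin and 12 TRiC features that covered 8 subunits. DnaJ proteins made up 6 features of class A, 11 of class B and 24 of class C, and 4 further features were heat shock factors or their binding protein HSBP1. The last 2, TCP11L1 and Tcp11l2, met the rule only because "T-complex protein 11" contains the searched words, and they are not TRiC subunits. Names are those of the closest protein in another species, and 17 members lay in the same assembled cluster as another member, where reads may be split between near-identical sequences. The endoplasmic reticulum chaperones HSPA5 and HSP90B1 are named otherwise in Swiss-Prot and are not among the 83.

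The labelled tissues carried marker genes of their own, with the exceptions given below. Summed FPKM (fragments per kilobase of transcript, scaled to library size, as deposited) of 8 hepatocyte features was 39621 to 87881 in liver libraries and at most 160 elsewhere. Of 10 skeletal muscle symbols only 2 matched. The actin acta1 had 17342 to 74259 FPKM in muscle and at most 25.8 elsewhere. Atp2a1 ranged from 1.6 to 160 FPKM in muscle and reached 104 in male brain replicate 2. The myelin gene MBP had 134 to 1852 FPKM in brain and at most 9.5 elsewhere. Mag, the other match of the neuron and glia list, did not mark brain. It had 1.1 to 4.2 FPKM in brain and 45.7 in male muscle replicate 2. The outer dense fiber gene odf3, the only match of 7 germ cell symbols, had 47.8 to 53.0 FPKM in gonad and at most 4.4 elsewhere. Its values were alike in female gonad (53.0 and 51.4) and male gonad (47.8 and 50.3). Outside gonad the globins hbb1 and hbaa, most of the summed FPKM of 3 blood features, ran with sex. The sum was 7180 and 17443 in female brain against 59.1 and 913 in male brain. It was also higher in each female liver and female muscle library than in any male library of that tissue. In gonad it was 56.1 and 342 in females and 86.1 and 106 in males. The third blood feature, Epb41, overlapped between the sexes in brain. It was lower in female than in male liver (19.6 and 20.7 against 29.4 and 34.4 FPKM) and muscle (8.9 and 15.7 against 21.6 and 60.2 FPKM). The 4 leukocyte features summed to 4098 FPKM in male gonad replicate 2 against 547 in male gonad replicate 1. The part of these cells in the results was not tested. Listed counts ran from 5134221 to 12972574 per library, and members took 0.863 to 5.46% of them, the highest share being in male muscle replicate 1.

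Per length and averaged over the 16 libraries, hspa8 had 2170 FPKM, hsp90ab1 1477 FPKM and an hsc71 feature 1240 FPKM, whereas the median member had 32.7 FPKM. The hspa8 mean rested on muscle, with 3310 and 1436 FPKM for females and 22078 and 7709 FPKM for males, while its mean in each other tissue and sex was 5.80 to 33.2. The same held for the hsc71 feature, with 1354 in female and 8525 in male muscle and 2.24 to 14.1 in the other groups. By contrast hsp90ab1 ranged from 261 to 2608 FPKM over the libraries. In their families cct4 (a TRiC subunit) led with 360 FPKM, hspb1 (the small heat shock protein HSP27) had 359 FPKM, HSPD1 118 FPKM, Dnajc4 85.2 FPKM, Dnaja4 73.6 FPKM, HSBP1 72.7 FPKM, dnajb6-b 52.6 FPKM, HSPA4 43.9 FPKM, Ahsa1 32.7 FPKM and TCP11L1 25.8 FPKM. These means hide the tissue differences below. For 3 hsc70 and hsc71 features of 1 assembled cluster the authors' FPKM implied effective lengths of only 3.8 to 35.4 bases, so their FPKM are large for their counts. Values per library below are therefore scaled CPM: counts divided by the library total and a TMM factor, the scaling used in the tests, with no length correction. No listed feature was below 0.31 FPKM in any library, and chaperones silent in a tissue were not analysed here.

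Each tissue was compared with the mean of the other 3 tissues, both sexes weighted equally. In brain 10 members were higher and 30 lower, against 21.8% and 21.4% of all features. In liver 16 were higher and 35 lower, against 24% and 22.2% of all features. In gonad 31 were higher and 18 lower, against 29.5% and 30.7%, and in muscle 37 were higher and 14 lower, against 21.7% and 23.3%. Calls are at an adjusted p below 0.05 (edgeR quasi-likelihood test, Benjamini-Hochberg over all features). In either direction, 43.2% of all features were called for brain, 46.2% for liver, 60.2% for gonad and 45.1% for muscle. Libraries of the tissue did not overlap those of the other tissues for 3 brain members (4.21% of all features), 10 liver members (5.65%), 3 gonad members (8.4%) and 9 muscle members (5.48%). The median log2 difference of members was -0.57 for brain, where that of all features was -0.07, and -0.58 for liver, where it was -0.04. For gonad it was 0.31, where that of all features was -0.08, and for muscle 0.33, where it was -0.10.

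These directions are relative to the scaling. When library totals recovered from the FPKM replaced TMM, the median of all features itself moved to 0.30 for brain, -0.81 for liver, 1.01 for gonad and -0.79 for muscle. Members then split into 13 higher and 16 lower in brain and 13 higher and 60 lower in liver. In gonad 58 were higher and 8 lower, and in muscle 23 and 30. Of all 16270 features, 5118 were then higher and 1563 lower in brain, and 1785 and 8251 in liver. The counts of all features were 9498 and 1584 in gonad and 1574 and 8005 in muscle. Family and list counts with recovered totals below stand against these, and those with TMM against the shares of all features given above. For single pairs of tissues no share of all features is given, so those counts have no such background. A change of totals shifts all features of a comparison by nearly the same amount. The member median less the median of all features is therefore nearly fixed and is no check of the scaling. With recovered totals it was -0.50 for brain, -0.54 for liver, 0.40 for gonad and 0.43 for muscle. With TMM it was -0.50, -0.54, 0.39 and 0.43. No member called with TMM was called in the opposite direction with recovered totals, although 9 tissue calls changed sign without being called.

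**Figure D1:**
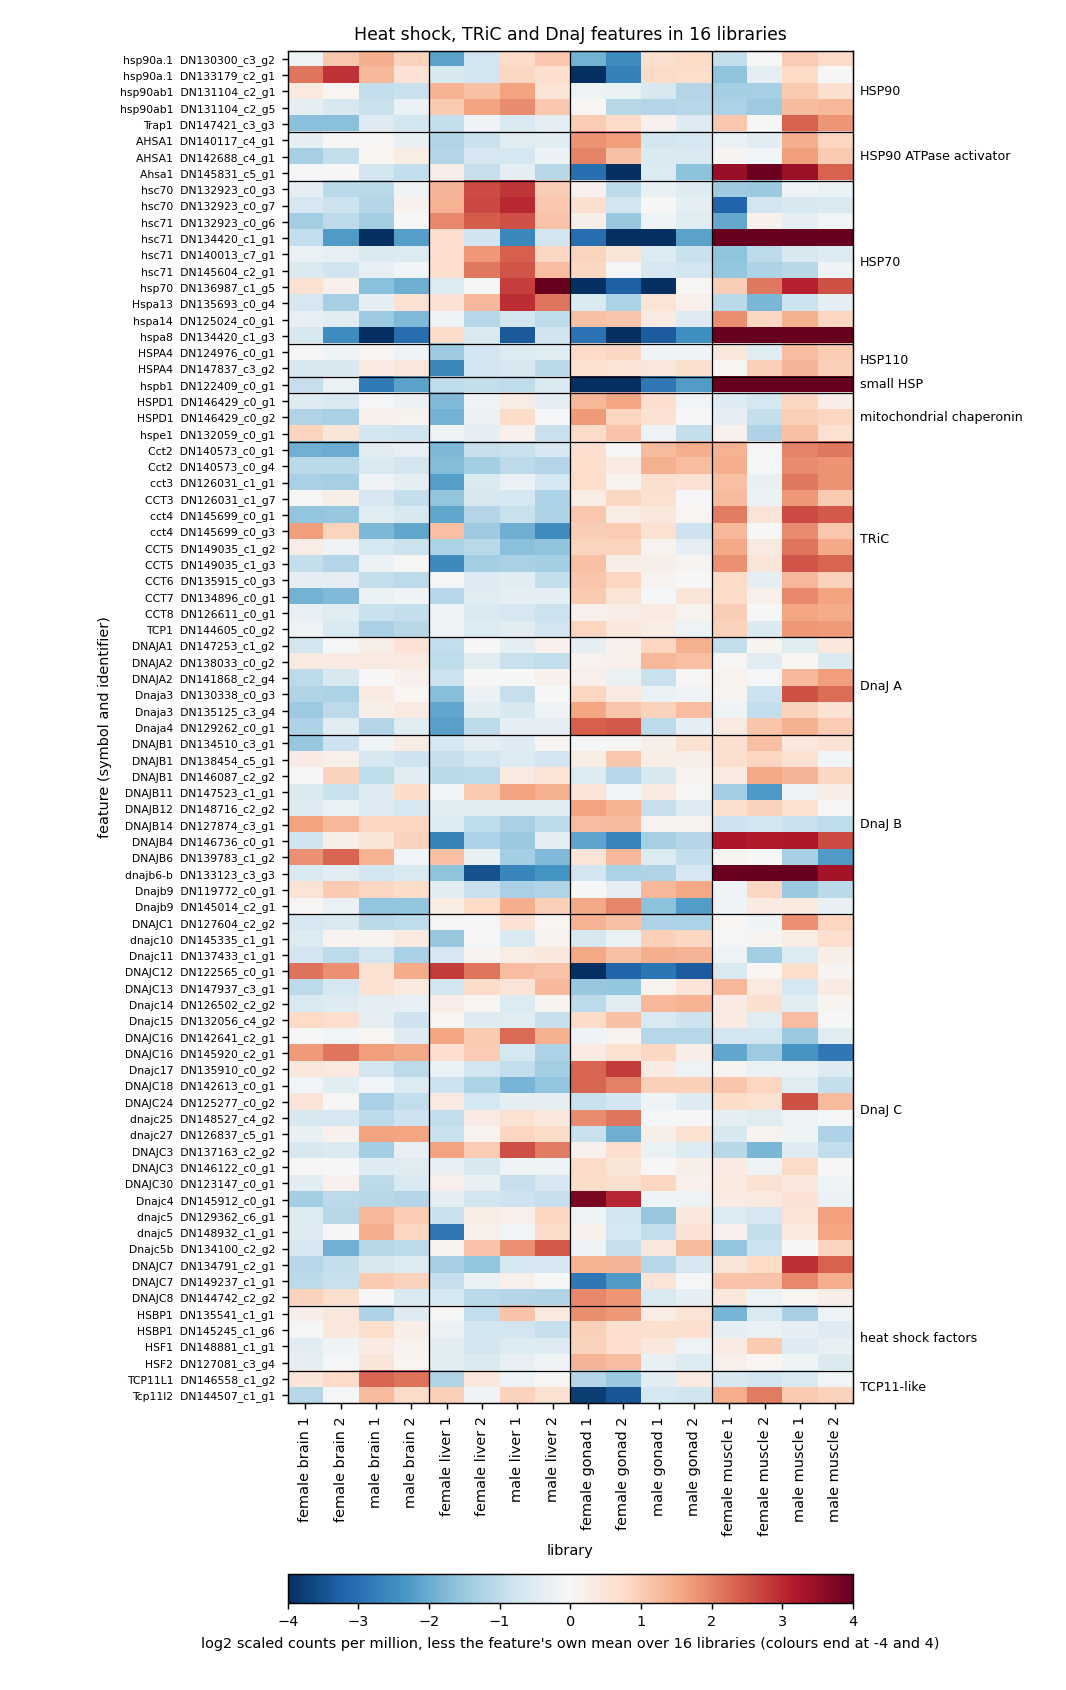
Heat map of the 83 features (down, grouped by family) in the 16 libraries (across, by tissue and then female before male); colour is log2 scaled CPM less the feature's own mean over the 16 libraries, red above and blue below. The muscle block of hsc71, hspa8, hspb1 and dnajb6-b, the liver block of the other hsc70 and hsc71 features and the female gonad block of Dnaja4 and Dnajc4 stand out.

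A total of 33 members were enriched in 1 tissue, meaning past the threshold and at least 1 log2 unit above each of the other tissues, which held for 29.8% of all features. Muscle had 13 of them and liver 11, where 5.72% and 7.72% of all features were enriched, while gonad had 5 and brain 4, where 10.6% and 5.72% were. The 11 in liver included 6 HSP70 features and both hsp90ab1 features, and the 13 in muscle came from 6 families. With TMM 9 of the 10 HSP70 features and 3 of the 5 HSP90 features were higher in liver than in gonad. With recovered totals only 2 and 1 were, so most of these HSP70 and hsp90ab1 enrichments did not hold with recovered totals. Some muscle enrichments did not hold either. With recovered totals no TRiC feature was called higher in muscle than in gonad, so those of cct4 and both CCT5 features were lost. Only 2 class B and 2 class C DnaJ features were then higher in muscle than in gonad. The liver HSP70 features TRINITY_DN132923_c0_g3, TRINITY_DN132923_c0_g6 and TRINITY_DN132923_c0_g7 lie in 1 assembled cluster, and both hsp90ab1 features lie in another. Such features may not be separate genes.

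Among the cytosolic HSP90 proteins, both features of the constitutive hsp90ab1 were higher in liver than in the mean of the other tissues, and the hsp90a.1 feature TRINITY_DN133179_c2_g1, named for the stress-inducible alpha form, was higher in brain. For hsp90ab1 TRINITY_DN131104_c2_g1, scaled CPM was 9180 and 7850 in female liver and 10700 and 5030 in male liver, against 1340, 2550 and 7200 (lowest, median, highest) in the other 12 libraries. Male muscle, at 7200 and 5390, overlapped the liver range. The log2 difference was 1.62 ± 0.30 (SE; edgeR adjusted p = 0.000619), and the second hsp90ab1 feature gave 1.88 ± 0.25 (edgeR adjusted p = 4.93e-05). With recovered totals these were 0.84 and 1.12 (edgeR adjusted p = 0.0152 and 0.00235). The order of liver and gonad depended on the scaling: of the 5 HSP90 features 3 were higher and 1 lower in liver than in gonad with TMM (median 1.33), against 1 and 1 with recovered totals (median -0.07). The brain hsp90a.1 feature had 298 and 498 scaled CPM in female brain and 170 and 99.4 in male brain, against 2.85, 59.2 and 119 elsewhere. Only male brain replicate 2 fell inside the range of the other tissues, and the log2 difference was 2.29 ± 0.29 (edgeR adjusted p = 3.55e-05). The other hsp90a.1 feature, TRINITY_DN130300_c3_g2, was also higher in brain (1.11 ± 0.27, edgeR adjusted p = 0.00481, or 0.0761 without female brain replicate 2).

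In gonad 3 HSP90 features were lower. Of these hsp90a.1 TRINITY_DN133179_c2_g1 differed by -1.84 ± 0.35 on the log2 scale (edgeR adjusted p = 0.000545), whereas hsp90a.1 TRINITY_DN130300_c3_g2, at -1.05 with TMM, came to 0.03 with recovered totals, and hsp90ab1 TRINITY_DN131104_c2_g5, at -1.07, came to 0.01. Trap1, the mitochondrial HSP90, was higher in muscle than in the mean of the other tissues. It had 194 and 90.8 scaled CPM in female muscle and 466 and 309 in male muscle, against 28.4, 63.8 and 183 elsewhere. Female muscle replicate 2 lay inside the range of the other tissues, and the log2 difference was 1.78 ± 0.22 (edgeR adjusted p = 2.77e-05), or 1.05 with recovered totals (edgeR adjusted p = 0.00249). Its difference from gonad alone depended on the scaling: of the HSP90 features none was higher and 3, Trap1 included, were lower in gonad than in muscle with TMM, against 1 higher and none lower with recovered totals, and Trap1 averaged 71.3 FPKM in female and 58.6 in male gonad and 20.7 in female and 85.0 in male muscle. In brain Trap1 was lower by a log2 difference of -1.57 ± 0.27 (edgeR adjusted p = 0.00037).

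Among the 3 features of the activator AHSA1, Ahsa1 TRINITY_DN145831_c5_g1 was a muscle gene. It had 355 and 484 scaled CPM in female muscle and 345 and 162 in male muscle, against 1.91, 17.8 and 38.3 elsewhere. Every muscle library was above every other library, with a log2 difference of 4.40 ± 0.27 (edgeR adjusted p = 4.78e-08). It was lower in gonad, at 3.91 and 1.91 in female gonad and 21.5 and 10.1 in male gonad (log2 difference -3.04 ± 0.36, edgeR adjusted p = 1.19e-05). The other 2 features, AHSA1 TRINITY_DN140117_c4_g1 and TRINITY_DN142688_c4_g1, differed by 0.54 and 0.90 on the log2 scale in muscle. The first of these changed sign to -0.20 with recovered totals. In gonad they differed by 0.67 and 0.66, and the female gonad carried the higher values (260 and 240 scaled CPM against 45.0 and 45.8 in male gonad for the first).

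Within the HSP70 family 4 of the 10 features were higher and 5 lower in muscle than in the mean of the other tissues, while in liver 7 were higher and 1 lower. With recovered totals 4 were higher and 6 lower in muscle, and 7 higher and 3 lower in liver. Liver and gonad were not set apart under both scalings: 9 features were higher and 1 lower in liver than in gonad with TMM (median 2.37), against 2 and 1 with recovered totals (median 0.99). Against muscle alone liver had 6 higher and 3 lower under both. Highest in muscle were hsc71 TRINITY_DN134420_c1_g1 and hspa8 TRINITY_DN134420_c1_g3, which lie in 1 assembled cluster and may share reads. The hsc71 feature had 4480 and 2510 scaled CPM in female muscle and 24200 and 7350 in male muscle, against 0.563, 6.96 and 51.7 elsewhere. For hspa8 the values were 3130 and 1530 in female muscle and 18400 and 3740 in male muscle, against 0.612, 4.35 and 47.5 elsewhere. Both were above all other libraries in each muscle library, by log2 differences of 9.93 ± 0.71 and 9.60 ± 0.61 (edgeR adjusted p = 1.87e-07 and 6.67e-08).

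The features higher in liver included 5 annotated hsc70 or hsc71, in 3 other assembled clusters. The most abundant by count, hsc71 TRINITY_DN145604_c2_g1, had 676 and 1830 scaled CPM in female liver and 2450 and 1000 in male liver, against 145, 276 and 758 elsewhere. Female liver replicate 1 was below female gonad replicate 1, and the other 3 liver libraries were above every other library. The log2 difference was 2.30 ± 0.29 (edgeR adjusted p = 3.05e-05), and for hsc71 TRINITY_DN140013_c7_g1 it was 2.01 ± 0.26 (edgeR adjusted p = 3.64e-05). In muscle these 2 features were lower, by -1.38 ± 0.35 and -1.32 ± 0.31 on the log2 scale (edgeR adjusted p = 0.00591 and 0.00341). The 3 features of cluster TRINITY_DN132923 differed in liver by 2.65 to 2.79 on the log2 scale. For hsc70 TRINITY_DN132923_c0_g7, the largest of these, scaled CPM was 19.5 and 46.2 in female liver and 60.3 and 15.7 in male liver, against 0.828, 4.7 and 11.7 elsewhere. All 4 liver libraries lay above the others (log2 difference 2.79 ± 0.39, edgeR adjusted p = 7.02e-05), on counts of only 3 in the lowest library.

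Hspa13, an HSP70 of the endoplasmic reticulum, was also higher in liver. Scaled CPM was 31.5 and 51.6 in female liver and 165 and 93.9 in male liver, against 5.95, 13.8 and 32.1 elsewhere, a log2 difference of 2.34 ± 0.24 (edgeR adjusted p = 5.01e-06). Female liver replicate 1 was just below male brain replicate 2, and the other liver libraries were above all others. Another HSP70 feature, hspa14, the HSP70 of the ribosome-associated complex in human cells, ran the other way. It was lower in liver (-1.02 ± 0.26, edgeR adjusted p = 0.00574) and in brain (-1.36 ± 0.27, edgeR adjusted p = 0.00111) and higher in muscle (1.69 ± 0.23, edgeR adjusted p = 5.12e-05). The inducible hsp70 TRINITY_DN136987_c1_g5, transcribed on heat and other stress, varied widely between libraries of a tissue. It had 9.88 and 14.6 scaled CPM in female liver, 100 and 258 in male liver, 29 and 63.6 in female muscle and 125 and 84.9 in male muscle, whereas gonad had 0.488 and 1.53 in the females and 0.787 and 15.2 in the males. Log2 differences were 2.71 ± 0.46 in muscle, 1.95 ± 0.47 in liver and -3.43 ± 0.64 in gonad (edgeR adjusted p = 0.00036, 0.00433 and 0.000434).

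The small heat shock protein hspb1, which binds unfolding proteins without ATP, was muscle-enriched. Scaled CPM was 1750 and 1950 in female muscle and 4240 and 1930 in male muscle, against 0.488, 10.5 and 24.4 elsewhere. Every muscle library was above every other library (log2 difference 8.40 ± 0.30, edgeR adjusted p = 1.39e-09). Its lowest values, 0.488 and 1.3, were in female gonad, and the gonad difference was -5.08 ± 0.41 (edgeR adjusted p = 4.56e-07). With muscle among the other tissues, brain and gonad were also lower for the muscle hsc71 and hspa8 features, by -3.55 and -3.60 in brain and -5.03 and -4.74 in gonad on the log2 scale. Both HSPA4 features, the HSP110 exchange factors, were higher in muscle with TMM (0.78 ± 0.20 and 1.10 ± 0.26, edgeR adjusted p = 0.00571 and 0.00379). They were lower in liver (-1.08 ± 0.22 and -1.56 ± 0.30, edgeR adjusted p = 0.00126 and 0.000952). The place of muscle depended on the scaling. Gonad and muscle did not differ by a call with TMM (median -0.30), but with recovered totals both features were higher in gonad than in muscle (median 1.06). Brain and muscle were then level (median 0.002).

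**Figure D2:**
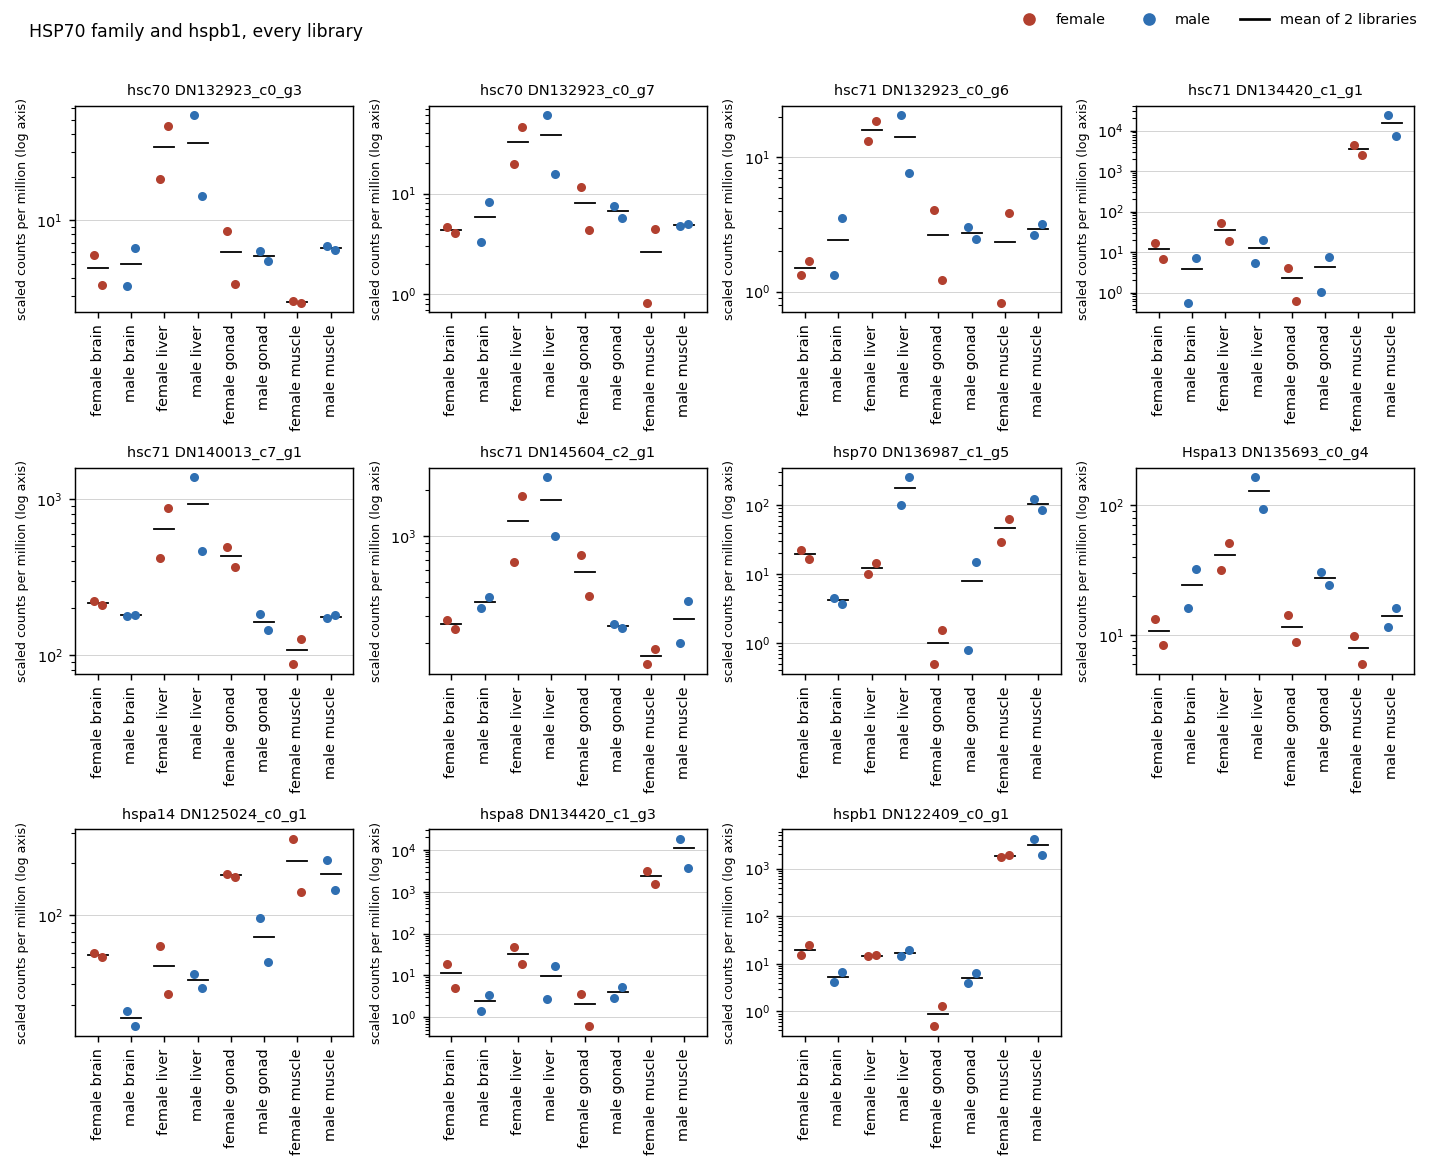
Scaled CPM (log axis) of the 10 HSP70 features and hspb1 in every library; points are libraries, red female and blue male, and bars are the mean of 2 libraries. The hsc71 and hspa8 features of cluster TRINITY_DN134420 and hspb1 exceed all other tissues in muscle, while the other hsc70 and hsc71 features and Hspa13 are highest in liver on this TMM scale; by FPKM the hsc71 feature TRINITY_DN140013_c7_g1 averages 791 in female liver and 1236 in female gonad.

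TRiC is the cytosolic chaperonin. In muscle 12 of 12 features were higher, with log2 differences of 0.93 to 2.63 and a median of 1.57. In liver 11 of 12 were lower (median -1.38), in brain 9 of 12 were lower (median -1.02) and in gonad 4 of 12 were higher (median 0.59). Of all features 21.7% were higher in muscle, 22.2% lower in liver, 21.4% lower in brain and 29.5% higher in gonad. The gonad count is near that share. The highest was cct4 TRINITY_DN145699_c0_g1, the delta subunit, with 1100 and 373 scaled CPM in female muscle and 1600 and 1440 in male muscle, against 62.3, 155 and 556 elsewhere. Female muscle replicate 2 overlapped female gonad replicate 1 (log2 difference 2.63 ± 0.26, edgeR adjusted p = 3.48e-06). The epsilon subunit CCT5 TRINITY_DN149035_c1_g3 followed with 2.44 ± 0.24 (edgeR adjusted p = 3.7e-06), and CCT6, the zeta subunit, had the smallest difference at 0.93 ± 0.23 (edgeR adjusted p = 0.00558, or 0.0752 without female muscle replicate 1).

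Between the tissues taken in pairs, all 12 TRiC features were lower in liver than in gonad and lower in liver than in muscle, and with recovered totals these counts were again 12 and 12. No share of all features is given for these pairs. With recovered totals the median of all features moved to -0.81 in liver and 1.01 in gonad, each against the other tissues. The repeated count against gonad therefore cannot be read as particular to TRiC. Gonad and muscle could not be ordered: with TMM 4 features were lower in gonad than in muscle and none higher, but with recovered totals 3 were higher in gonad and none lower. Against the mean of the other tissues, recovered totals gave 9 features higher in muscle, 12 lower in liver, 4 lower in brain and 12 higher in gonad. Of all 16270 features 1574 were then higher in muscle, 8251 lower in liver, 1563 lower in brain and 9498 higher in gonad. Summed over the 12 features, scaled CPM was 5350 and 4460 in female gonad, 3910 and 3290 in male gonad, 6950 and 2940 in female muscle and 11000 and 9120 in male muscle. Liver had 2040 and 1800 in the females and 1840 and 1510 in the males, and brain had 2460 and 2070 in the females and 1760 and 1700 in the males. Female muscle replicate 2 was closer to gonad than to the other muscle libraries.

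For the other subunits in muscle, log2 differences were 1.90 and 1.78 for the 2 Cct2 features (beta), 1.65 and 1.35 for the 2 cct3 features (gamma), 1.91 for CCT5 TRINITY_DN149035_c1_g2, 1.38 for CCT8 (theta) and 1.34 for TCP1 (alpha). In liver CCT5 TRINITY_DN149035_c1_g3 was lowest, with 10.1 and 22.3 scaled CPM in female liver and 23.7 and 22.8 in male liver, against 26.1, 69.4 and 338 elsewhere. No liver library reached any other library (log2 difference -2.19 ± 0.31, edgeR adjusted p = 7.07e-05). TCP1 was the 1 subunit not called in liver (-0.68 ± 0.28, edgeR adjusted p = 0.0643). In gonad the called features were both Cct2 features (1.12 ± 0.23 and 1.21 ± 0.23, edgeR adjusted p = 0.000837 and 0.000445), CCT6 and CCT7.

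**Figure D3:**
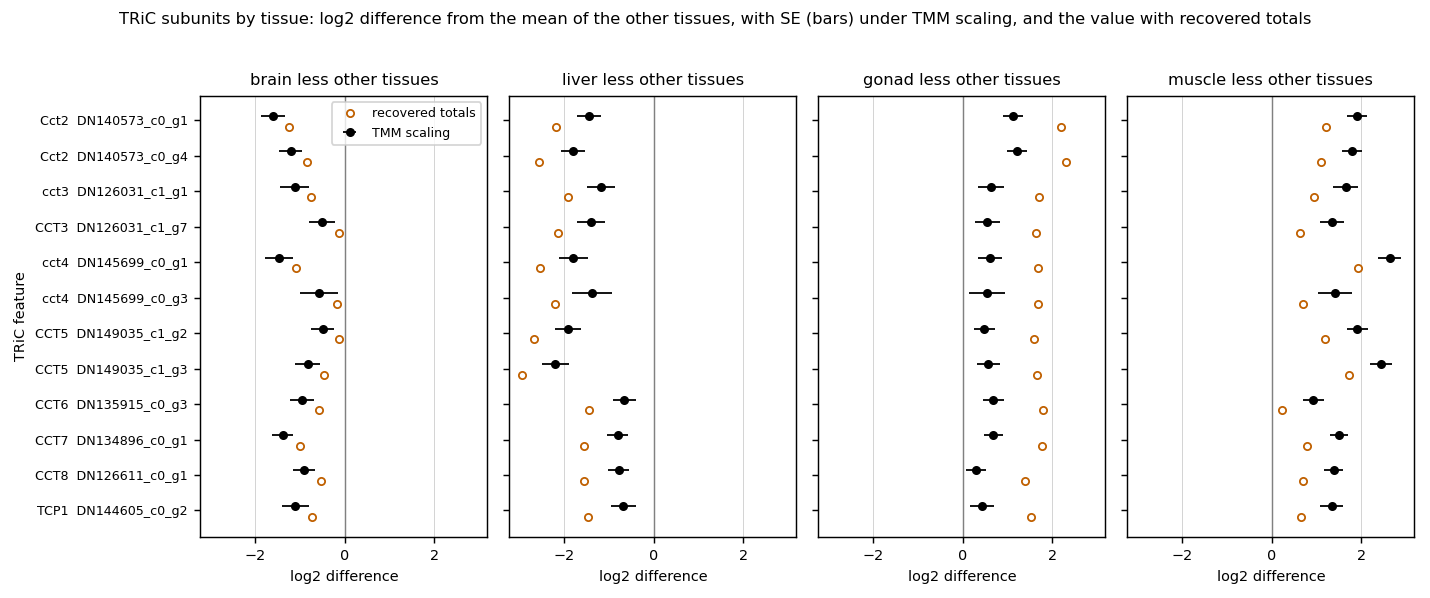
Log2 differences of the 12 TRiC features (down) for each tissue against the mean of the other tissues; filled points with bars are values with SE under TMM scaling, and open points are values with recovered library totals. Muscle and gonad lie above 0 and liver and brain below 0 for all 12 features under both scalings, while the sizes shift with the scaling.

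The mitochondrial chaperonin did not follow TRiC. The 2 HSPD1 features, from 1 assembled cluster, were higher in gonad (1.14 ± 0.25 and 1.04 ± 0.26, edgeR adjusted p = 0.00151 and 0.00404), and neither differed in muscle beyond the threshold (-0.08 and 0.12). HSPD1 TRINITY_DN146429_c0_g2 had 274 and 154 scaled CPM in female gonad and 126 and 84.1 in male gonad, against 22.8, 75.5 and 165 elsewhere, so only female gonad replicate 1 lay above the range of the other tissues. The co-chaperonin hspe1 passed the threshold in no tissue, with log2 differences of -0.44 to 0.31.

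DnaJ proteins of class A, the general HSP70 partners, were higher in gonad for 4 of 6 features and in muscle for 3 of 6, and lower in liver for 4 of 6. Of all features 29.5% were higher in gonad, 21.7% higher in muscle and 22.2% lower in liver. With recovered totals none was higher in muscle and 2 were lower. Dnaja3, the mitochondrial member, had 1 gonad-enriched feature, TRINITY_DN135125_c3_g4, with 38.6 and 27.8 scaled CPM in female gonad and 24.3 and 30.4 in male gonad, against 3.06, 10.5 and 24.1 elsewhere. All gonad libraries lay above the others (log2 difference 1.58 ± 0.26, edgeR adjusted p = 0.000151).

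Class B counts were 6 higher and 3 lower of 11 in muscle, 4 and 3 in gonad, 2 and 6 in liver and 3 and 4 in brain. Of all features 21.7% were higher and 23.3% lower in muscle and 29.5% and 30.7% in gonad. The shares were 24% and 22.2% in liver and 21.8% and 21.4% in brain. With recovered totals the split in muscle was 3 higher and 5 lower. Muscle enrichment was largest for dnajb6-b TRINITY_DN133123_c3_g3, counted here under the name DNAJB6, whose human gene is mutated in a limb-girdle muscular dystrophy. It had 262 and 298 scaled CPM in female muscle and 540 and 172 in male muscle, against 1.54, 8.73 and 12.7 elsewhere, with every muscle library above every other (5.52 ± 0.28 on the log2 scale, edgeR adjusted p = 9.91e-09), and liver was lower (-3.27 ± 0.39, edgeR adjusted p = 1.62e-05). DNAJB4, another partner of HSP70, had 481 and 462 in female muscle and 472 and 314 in male muscle, against 8, 22.1 and 96.8 elsewhere. Again no library outside muscle overlapped (4.01 ± 0.26, edgeR adjusted p = 7.39e-08). In brain the largest were DNAJB6 TRINITY_DN139783_c1_g2 (1.86 ± 0.30, edgeR adjusted p = 0.000292) and DNAJB14, an endoplasmic reticulum membrane protein (1.56 ± 0.15, edgeR adjusted p = 4.16e-06). DNAJB11, a partner of the endoplasmic reticulum HSP70, was higher in liver (1.33 ± 0.26, edgeR adjusted p = 0.00106) and lower in muscle (-1.19 ± 0.31, edgeR adjusted p = 0.00644).

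Class C, the most varied in domain structure, had 9 of 24 features higher and 5 lower in gonad, 4 and 3 in muscle, 4 and 5 in liver and 3 and 8 in brain. Of all features 29.5% were higher and 30.7% lower in gonad and 21.7% and 23.3% in muscle. The shares were 24% and 22.2% in liver and 21.8% and 21.4% in brain. With recovered totals the splits were 16 and 1 in gonad, 3 and 9 in muscle, 4 and 14 in liver and 4 and 6 in brain. In gonad 9498 of all 16270 features were then higher and 1584 lower, and in liver 1785 and 8251. DNAJC12, which in human binds the aromatic amino acid hydroxylases of liver and neurons, divided the tissues sharply. It had 57.5 and 44.7 scaled CPM in female brain and 19.5 and 35.4 in male brain, 87.5 and 56.2 in female liver and 29.6 and 28.0 in male liver. Gonad had 0.651 and 1.38 in the females and 1.71 and 1.25 in the males, and muscle had 8.28 to 20.8. Log2 differences were 2.40 ± 0.23 in liver, 2.03 ± 0.23 in brain and -4.53 ± 0.35 in gonad (edgeR adjusted p = 2.64e-06, 1.96e-05 and 2.91e-07).

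Liver-enriched members of class C included DNAJC3 TRINITY_DN137163_c2_g2, a chaperone of the endoplasmic reticulum lumen and inhibitor of the kinase PERK. Its scaled CPM was 180 and 120 in female liver and 356 and 249 in male liver, against 16.6, 40.1 and 94.6 elsewhere, with no overlap (2.42 ± 0.21, edgeR adjusted p = 1.01e-06). In muscle it was lower (-1.47 ± 0.26, edgeR adjusted p = 0.00049). Gonad-enriched members were Dnajc4, DNAJC18, Dnajc11 (a mitochondrial protein) and Dnajc17, with log2 differences of 2.16 ± 0.18, 2.07 ± 0.17, 1.81 ± 0.22 and 1.76 ± 0.19 (edgeR adjusted p = 6.25e-07, 4.12e-07, 1.42e-05 and 5.11e-06). For Dnajc11 the gonad values were 97.4 and 74.6 in the females and 90 and 85.7 in the males, against 12.8, 21.8 and 44.1 elsewhere, so both sexes were above every other library. For Dnajc4 the male gonad (21.9 and 21.6) lay within the range of the other tissues (9.74 to 37.3), and only the female gonad (336 and 206) stood above it. Dnajc17 was alike, with 81.6 and 114 in female gonad and 20.4 and 14.3 in male gonad, against 22.5 in female brain replicate 1. For DNAJC18 female gonad had 279 and 226, and male gonad (109 and 108) lay below female muscle replicate 1 (121).

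HSF1, the main inducer of heat shock genes, HSF2 and the 2 features of HSBP1, a negative regulator of HSF1, were all higher in gonad, by 0.62 ± 0.20, 0.58 ± 0.19, 1.41 ± 0.28 and 0.96 ± 0.18 on the log2 scale (edgeR adjusted p = 0.0148, 0.0148, 0.000718 and 0.000384). These are means over both sexes. HSF2 had 49.6 and 45.8 scaled CPM in female gonad, but 15.7 and 13.2 in male gonad, below male brain (27.2 and 20.6). HSBP1 TRINITY_DN135541_c1_g1 had 36.1 and 33.0 in female gonad, but 12.4 and 14.5 in male gonad, below male liver replicate 1 (22.2). For HSF1, female muscle replicate 2 (50.8) was above every gonad library. The HSF1 and HSF2 calls were lost without female gonad replicate 1 or male gonad replicate 1 (largest adjusted p 0.133 and 0.0876). The remaining name matches were TCP11L1, higher in brain (1.87 ± 0.24, edgeR adjusted p = 4.03e-05), and Tcp11l2, lower in gonad (-2.92 ± 0.31, edgeR adjusted p = 3.88e-06). TCP11L1 was -0.92 in gonad with TMM and 0.14 with recovered totals.

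Of 21 protein names carried by several members (46 features), 3 had a feature called higher and another called lower in gonad, 2 in brain, 2 in muscle and 1 in liver. The rate over all names with several features is not given, so these counts cannot be read as particular to chaperones. In gonad 29.5% of all features were higher and 30.7% lower. Of the 3 in gonad, the lower DNAJB1 and DNAJC16 features changed sign with recovered totals (to 0.35 and 0.29). DNAJB6 was divided between brain and muscle: DNAJB6 TRINITY_DN139783_c1_g2 differed by 1.86 in brain and -1.22 in muscle, where dnajb6-b differed by -0.89 and 5.52. The 2 DNAJC16 features were divided between liver and brain. DNAJC16 TRINITY_DN142641_c2_g1 had 141 and 96.5 scaled CPM in female liver and 225 and 126 in male liver, against 16.7, 33.3 and 51.2 elsewhere (2.13 ± 0.21, edgeR adjusted p = 2.65e-06). DNAJC16 TRINITY_DN145920_c2_g1 had 54.0 and 72.9 in female brain and 53.0 and 46.9 in male brain, against 2.26, 14.9 and 33.1 elsewhere (2.34 ± 0.20, edgeR adjusted p = 1.27e-06). Neither pattern overlapped with other tissues, and in muscle the brain feature was down to 2.26 to 5.95 (-2.92 ± 0.27, edgeR adjusted p = 2.03e-06).

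**Figure D4:**
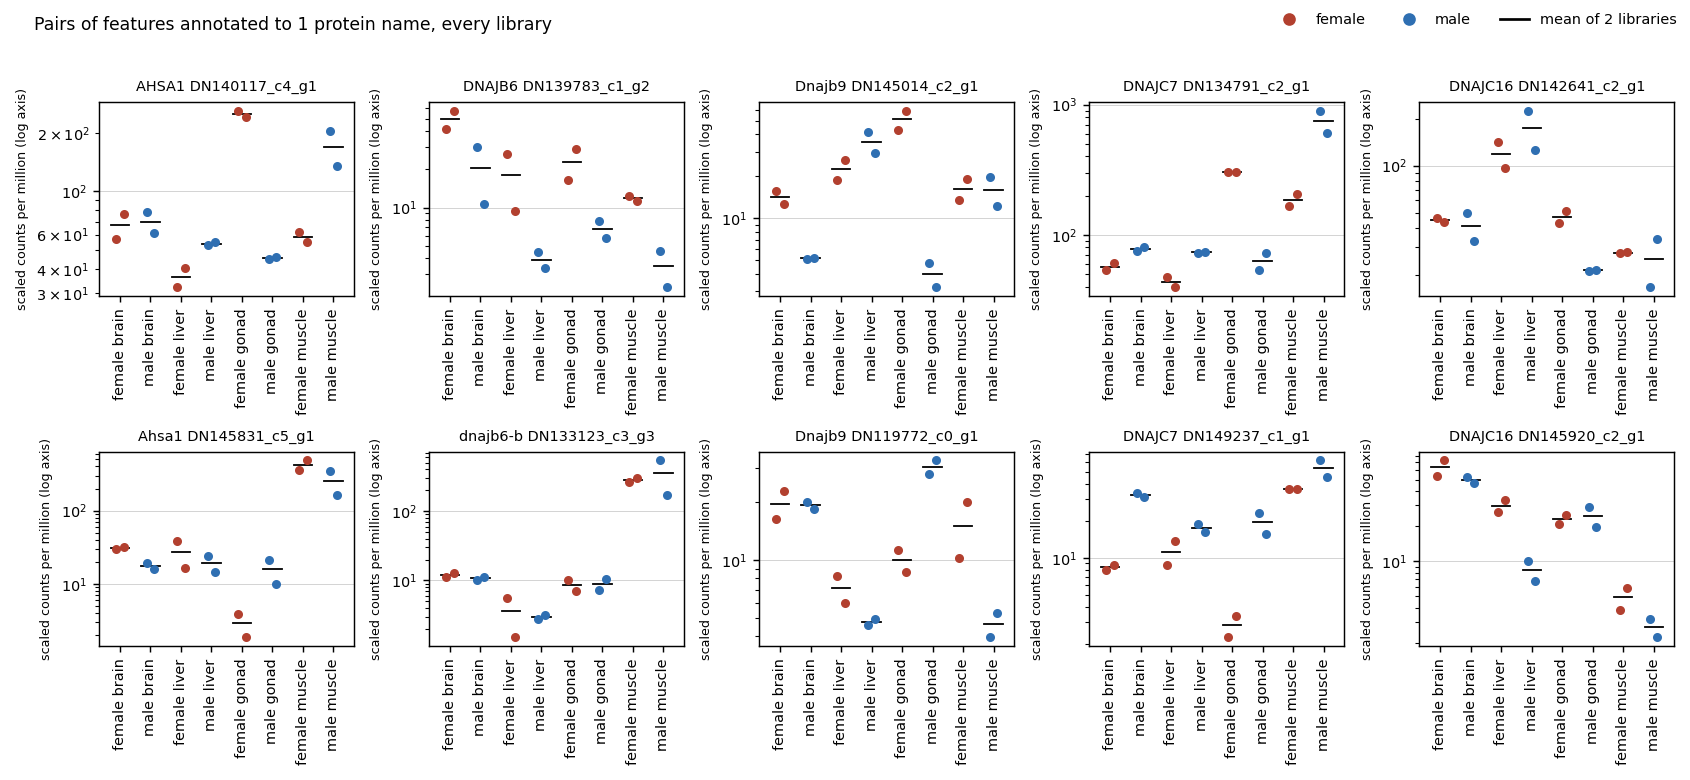
Scaled CPM (log axis) in every library for 5 pairs of features, 1 pair to a column, each pair annotated to 1 protein name; points are libraries, red female and blue male, and bars are the mean of 2 libraries. The AHSA1, DNAJB9 and DNAJC7 pairs run in opposite directions between female and male gonad, and the DNAJB6 and DNAJC16 pairs between tissues.

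In gonad 22 members were higher in females and 15 lower, against 23.3% and 23.8% of all features, 47.1% in either direction. With recovered totals, under which the median of all features moved to -0.72 (-0.02 with TMM), 13 were higher and 22 lower. Of all 16270 features 1879 were then higher and 5672 lower. None of the 37 changed sign. Female and male gonad did not overlap for 61 members, against 78.1% of all features. Of the 37 calls 20 held without any 1 of the 16 libraries. The count was 22 without male gonad replicate 2, 23 without female gonad replicate 2 and 24 without female gonad replicate 1.

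The largest female excess in gonad was in DnaJ proteins. Dnajb9 TRINITY_DN145014_c2_g1, a chaperone of the endoplasmic reticulum, had 43.2 and 59 scaled CPM in female gonad against 4.81 and 3.22 in male gonad (log2 difference 3.67 ± 0.43, edgeR adjusted p = 6.14e-05). Dnajc4 had 336 and 206 in female gonad against 21.9 and 21.6 in male gonad (3.64 ± 0.38, edgeR adjusted p = 3.27e-05). Dnaja4 had 781 and 823 in female gonad against 73.1 and 116 in male gonad (3.09 ± 0.49, edgeR adjusted p = 0.000336). For all 3 the female gonad libraries were above every other library of the study.

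DNAJC1, an endoplasmic reticulum membrane protein, and Dnajc17, a splicing-related protein, followed with 2.53 ± 0.35 and 2.49 ± 0.37 (edgeR adjusted p = 0.000158 and 0.000236). DNAJC8, another splicing-related member, had 442 and 404 scaled CPM in female gonad against 76.5 and 89.6 in male gonad (2.35 ± 0.35, edgeR adjusted p = 0.000226). AHSA1 TRINITY_DN140117_c4_g1 had 260 and 240 in female gonad against 45.0 and 45.8 in male gonad (2.46 ± 0.33, edgeR adjusted p = 0.000116). The transcription factor HSF2 was higher as well, at 49.6 and 45.8 in female gonad against 15.7 and 13.2 in male gonad (1.72 ± 0.34, edgeR adjusted p = 0.00131).

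Lower in female gonad were both hsp90a.1 features. TRINITY_DN133179_c2_g1 (hsp90a.1) had 2.85 and 10.2 scaled CPM in female gonad against 114 and 109 in male gonad (-4.09 ± 0.62, edgeR adjusted p = 0.000244). TRINITY_DN130300_c3_g2 (hsp90a.1) had 8.71 and 5.66 against 49.8 and 55.8 (-2.88 ± 0.53, edgeR adjusted p = 0.000874). The hsp90ab1 features, which are the more abundant, did not pass the threshold (0.66 ± 0.56 and 0.78 ± 0.48, edgeR adjusted p = 0.347 and 0.196). Tcp11l2 and hspb1 were also lower (-2.84 ± 0.48 and -2.50 ± 0.58, edgeR adjusted p = 0.000513 and 0.00357, the second at 0.0521 without female gonad replicate 1). The inducible hsp70 call rested on 1 library: 0.488 and 1.53 in female gonad stood against 0.787 and 15.2 in male gonad (log2 difference -2.96, edgeR adjusted p = 0.0259), and without male gonad replicate 2 the log2 difference was 0.35.

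For 3 names, features were called in opposite directions between female and male gonad. The rate over all names is not given, and 23.3% of all features were called higher and 23.8% lower. Beside Dnajb9 TRINITY_DN145014_c2_g1 stood Dnajb9 TRINITY_DN119772_c0_g1, with 11.2 and 8.65 scaled CPM in female gonad against 28.1 and 32.9 in male gonad (-1.62 ± 0.41, edgeR adjusted p = 0.00595). DNAJC7, a protein that binds both HSP70 and HSP90, had 306 and 305 in female gonad against 53.3 and 73.2 in male gonad for TRINITY_DN134791_c2_g1 (2.27 ± 0.34, edgeR adjusted p = 0.000226). For DNAJC7 TRINITY_DN149237_c1_g1 the values were 2.28 and 3.37 in female gonad against 23.3 and 15.7 in male gonad (-2.78 ± 0.40, edgeR adjusted p = 0.000177). The muscle Ahsa1 feature, at 3.91 and 1.91 in female gonad against 21.5 and 10.1 in male gonad (-2.44 ± 0.56, edgeR adjusted p = 0.00318), ran against the other AHSA1 features. The 12 TRiC features gave no call between female and male gonad by edgeR, 3 at an unadjusted p below 0.05, and 2 calls by DESeq2. Of all 16270 features DESeq2 called 4315 higher and 4159 lower in female gonad. The share of all features at an unadjusted p is not given.

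The sex difference in gonad was then set against its mean over brain, liver and muscle in an interaction test. It was more positive in gonad for 26 members and more negative for 8, against 17.2% and 18.5% of all features, 35.7% in either direction. The median was 0.61 over members and -0.06 over all features. With recovered totals the counts were 17 and 9, against 1973 and 3182 of all 16270 features, whose median moved to -0.26. Leaving out each library in turn, 19 of the 34 calls held. The 2 HSPD1 features (1.89 ± 0.54 and 2.43 ± 0.57, edgeR adjusted p = 0.0153 and 0.00547), Trap1 (1.85 ± 0.48, edgeR adjusted p = 0.00985) and Dnaja3 TRINITY_DN130338_c0_g3 (2.35 ± 0.55, edgeR adjusted p = 0.00537) were among the 26. None of these was itself called between female and male gonad. The HSPD1 features differed there by 1.02 to 1.12, and between female and male muscle by -1.56 to -1.18. Dnaja3 TRINITY_DN130338_c0_g3 differed by -2.68 in muscle. The HSPD1 partner hspe1 (1.45 ± 0.55, edgeR adjusted p = 0.0541) and the second Dnaja3 feature, TRINITY_DN135125_c3_g4 (1.43 ± 0.55, edgeR adjusted p = 0.0583), did not pass the threshold of the interaction test. The first HSPD1 call was lost without female gonad replicate 2 or male gonad replicate 2, and the Trap1 call without male gonad replicate 2 (largest adjusted p 0.0993 and 0.0739).

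**Figure D5:**
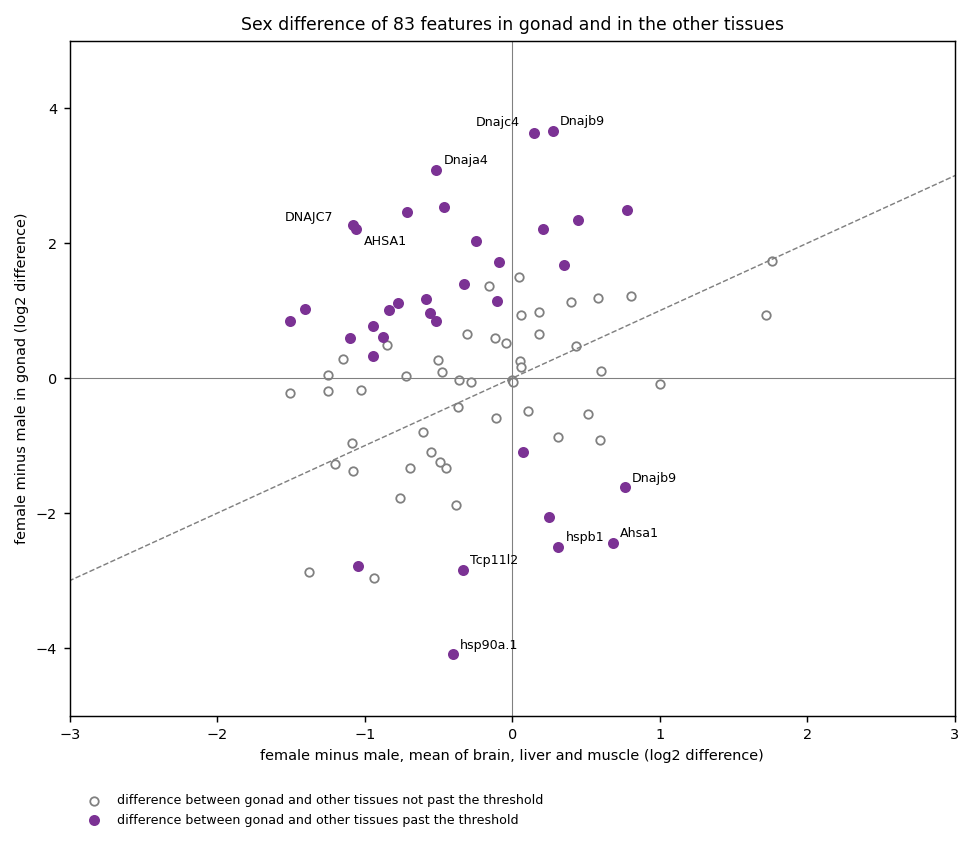
Female minus male log2 difference of the 83 features in gonad (vertical) against its mean over brain, liver and muscle (horizontal); the dashed line marks equal differences, and filled points passed the test of the difference between gonad and the other tissues. The labelled features are the 5 largest in each direction, from Dnaja4 above the line to hsp90a.1 below it.

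In brain 12 members were higher in females and 13 lower, against 21.4% and 18.4% of all features, 39.8% in either direction. With recovered totals, under which the median of all features moved to -0.46 (0.12 with TMM), the split was 2 higher and 23 lower. Of all 16270 features 1720 were then higher and 4318 lower. Female and male brain did not overlap for 62 members, against 77.9% of all features. Of the 25 calls only 1 held without each library in turn. The count was 2 without female brain replicate 1, 6 without female brain replicate 2, 9 without male brain replicate 1 and 5 without male brain replicate 2. The call that held was DNAJC7 TRINITY_DN149237_c1_g1, at 8 and 8.8 scaled CPM in female brain against 33.6 and 30.9 in male brain (-1.94 ± 0.38, edgeR adjusted p = 0.00451). The largest was cct4 TRINITY_DN145699_c0_g3, at 315 and 182 in female brain against 28.5 and 23.2 in male brain (3.26 ± 0.76, edgeR adjusted p = 0.00789). It was lost without female brain replicate 1 or male brain replicate 2 (largest adjusted p 0.0662), and the other cct4 feature of its cluster had 87.6 and 91.0 in female brain against 188 and 169 in male brain and was not called (edgeR adjusted p = 0.122).

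Other brain differences by the same rule were higher in females for hspb1 (1.89 ± 0.53, edgeR adjusted p = 0.0151), hsp90a.1 TRINITY_DN133179_c2_g1 (1.57), hspe1 (1.47), Dnajb9 TRINITY_DN145014_c2_g1 (1.45) and DNAJC24 (1.43), a protein of diphthamide synthesis. Lower in females were dnajc5 TRINITY_DN129362_c6_g1, the cysteine string protein of synaptic vesicles (-1.98 ± 0.63, edgeR adjusted p = 0.0248), dnajc27 (-1.63), TCP11L1 (-1.63), CCT7 (-1.61) and Cct2 TRINITY_DN140573_c0_g1 (-1.58). Female and male brain libraries also differed in cell content markers: MBP, the myelin basic protein, had 1371 and 1852 FPKM in female brain against 134 and 156 FPKM in male brain, and the beta globin hbb1 had 5906 and 13467 FPKM against 30.4 and 760 FPKM. The part of these differences in the brain calls was not tested.

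In liver 3 members were called, 1 higher and 2 lower in females, against 1.46% and 1.33% of all features, 2.78% in either direction, and with a replicate block within sex 5 were called. With that block 424 of all 16270 features were higher and 334 lower. The inducible hsp70 had 9.88 and 14.6 scaled CPM in female liver against 100 and 258 in male liver (-3.87 ± 0.96, edgeR adjusted p = 0.0493), with no overlap. Female and male liver did not overlap for 41 members, against 47.5% of all features. The hsp90a.1 feature TRINITY_DN130300_c3_g2 had 7.29 and 18.9 in female liver against 54.4 and 68.1 in male liver (-2.22 ± 0.52, edgeR adjusted p = 0.0417). DNAJC16 TRINITY_DN145920_c2_g1 had 26.3 and 33.1 in female liver against 10.1 and 6.82 in male liver (1.82 ± 0.39, edgeR adjusted p = 0.0316). None of the 3 calls held in every fit that left out 1 library. The number of calls depended on single liver libraries and rose without female liver replicate 2. In that library the leukocyte feature LCP1 had 7530 FPKM. The other leukocyte features there lay within or below the range of the other liver libraries (CD74 179, lcp1 10.4 and ptprc 7.8 FPKM). This LCP1 feature was higher in liver than in the mean of the other tissues (log2 difference 8.85 ± 1.11, edgeR adjusted p = 2.64e-05). CD74, ptprc and lcp1 were not called in liver (0.37, 0.37 and -0.04). LCP1 may therefore not mark leukocytes here, and its part in the calls was not tested.

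In muscle 1 member was higher in females and 5 lower, against 1.2% and 1.75% of all features, 2.96% in either direction. The median log2 difference of members was -0.72, where that of all features was -0.02. With recovered totals 1 was higher and 29 lower, against 108 and 1953 of all 16270 features, whose median moved to -0.70. The largest was Dnaja3 TRINITY_DN130338_c0_g3, at 25.7 and 13.1 scaled CPM in female muscle against 137 and 112 in male muscle (-2.68 ± 0.50, edgeR adjusted p = 0.0146). It was followed by hsp90ab1 TRINITY_DN131104_c2_g5, at 254 and 225 in female muscle against 1490 and 1560 in male muscle (-2.68 ± 0.51, edgeR adjusted p = 0.0151). DNAJC7 TRINITY_DN134791_c2_g1 had 166 and 205 in female muscle against 899 and 608 in male muscle (-2.02 ± 0.33, edgeR adjusted p = 0.00858).

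Also lower in female muscle were AHSA1 TRINITY_DN140117_c4_g1 (-1.53 ± 0.32, edgeR adjusted p = 0.0231) and DNAJC1 (-1.47 ± 0.34, edgeR adjusted p = 0.0369), while DNAJC18 was higher (1.70 ± 0.32, edgeR adjusted p = 0.0155). In these the female and male libraries did not overlap. Of the 83 members 60 did not overlap between female and male muscle, where 45.6% of all features did not. None of the 6 calls held in every fit with 1 library left out, and the count was 0 without female muscle replicate 2, 2 without female muscle replicate 1 and 11 without either female liver library. Of the 12 TRiC features none was called by edgeR, 7 were lower at an unadjusted p below 0.05, and DESeq2 called 2. Of all 16270 features DESeq2 called 554 higher and 893 lower in female muscle. The share of all features at an unadjusted p is not given. The muscle hsc71 and hspa8 features, though several times higher in male muscle, did not pass either (-2.17 ± 1.19 and -2.25 ± 1.03, edgeR adjusted p = 0.321 and 0.239). The skeletal actin acta1 had 74259 and 58497 FPKM in female muscle against 25098 and 17342 FPKM in male muscle, and its part in these values was not tested.

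Other chaperone genes outside the 83 were counted by list. Of 30 features of endoplasmic reticulum chaperones and folding enzymes, 26 were higher and 2 lower in liver (median log2 difference 1.78, where that of all features was -0.04), and 1 was higher and 21 lower in muscle (median -0.99). With recovered totals the counts were 17 and 4 in liver and 0 and 25 in muscle. PDIA4, a disulfide isomerase, had the largest liver difference (4.19 ± 0.23, edgeR adjusted p = 9.62e-09). HSP90B1, the HSP90 of the endoplasmic reticulum, differed by 3.93 ± 0.32 and 3.40 ± 0.27 in its 2 features (edgeR adjusted p = 4.39e-07 and 4.41e-07), and its HSP70, HSPA5, by 1.86 ± 0.32 and 1.18 ± 0.25 (edgeR adjusted p = 0.000418 and 0.00185). One of the HSPA5 features lies in the assembled cluster of the liver hsc70 features.

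Of 11 features of prefoldin subunits, tubulin folding cofactors and other TRiC partners, 7 were higher and 1 lower in muscle (median 1.25) and 8 were lower and none higher in liver (median -1.13). With recovered totals 5 were higher and 3 lower in muscle and 11 lower in liver. The phosducin-like pdcl3, a TRiC regulator, was the largest in muscle (3.37 ± 0.20, edgeR adjusted p = 3.56e-08). Co-chaperones of HSP90 and HSP70 had 12 of 26 features higher and 4 lower in muscle and 2 higher and 15 lower in liver, while recovered totals gave 8 and 9 in muscle and 1 and 20 in liver. With TMM, the shares of all features beside these lists were 21.7% and 23.3% in muscle and 24% and 22.2% in liver. Mitochondrial folding and import partners had 9 of 20 higher and 2 lower in gonad (median 0.44), against 29.5% and 30.7% of all features. With recovered totals they had 17 and 0, where 9498 of all 16270 features were higher in gonad and 1584 lower. The sex difference was more positive in gonad than in the other tissues for 14 of the 30 endoplasmic reticulum features and more negative for 1, where 17.2% and 18.5% of all features were. The counts were 10 and 0 of the 20 mitochondrial partners, 8 and 1 of the 26 co-chaperones and 3 and 1 of the 11 TRiC partners. With recovered totals they were 12 and 1, 8 and 0, 4 and 0, and 2 and 1 in the same order of lists. Of all 16270 features 1973 were then more positive and 3182 more negative. These contrasts also hold the sex differences of the other tissues. With TMM the median female minus male difference of the endoplasmic reticulum list was 0.456 in gonad, -0.649 in brain, -0.579 in liver and -1.195 in muscle. For the mitochondrial partners it was 0.786, -0.371, -0.072 and -0.512 in the same order.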

How the data were processed

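RNA-seq of 16 libraries was analysed, 2 for each sex and tissue. The authors deposited 1 table of 16270 assembled features with expected counts and FPKM for each library and the closest Swiss-Prot protein, per the file headers. The tool RSEM is named in the submitters' processing notes, without a version. Not given in the sources used here are the assembler, the aligner, the transcript set and the strand setting. The deposited FPKM values are per length and library size, per the file headers, and the depth behind them was taken from the expected counts. A further 16 value columns belong to no listed sample and were not used.

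The members, gene lists and rules were chosen with earlier results of these data known. The planned unit was counts or RPKM. Since the table holds expected counts (at least 94.1% whole in every library), these were rounded and tested with edgeR 4.0.16 (quasi-likelihood test, TMM, R 4.3.3) over all features and the 8 groups, with 8 residual degrees of freedom and Benjamini-Hochberg adjustment within each of 9 comparisons at 0.05. The fit was tested on simulated data. TMM factors were 0.623 to 1.85, and listed counts made up 51.4 to 80.4% of the library totals recovered from FPKM and counts. With 2 libraries a group, the number of libraries limits the precision more than depth, though 11 members had under 10 counts in some library.

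Alternatives were other scalings, DESeq2 1.42.0, limma 3.58.1 on log2(FPKM + 1) and log2(FPKM + 0.1), filters at 10 counts, a replicate block and leaving out each library. Named were, per family, the feature with the highest mean level, per tissue the 5 largest increases and 3 largest decreases past the threshold, per sex comparison 6 and 6, for the interaction 5 and 5, and the TRiC, HSP90 and mitochondrial chaperonin features. Any other feature was chosen after its values were seen. Marker lists covered muscle, hepatocyte, neuron and glia, blood, leukocyte and germ cell genes. No sequences are shown.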

Additional observations from a re-analysis of the deposited data

Results flagged for a closer look

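For 16 features the female minus male difference in gonad differed from its mean over brain, liver and muscle by the interaction test itself (edgeR quasi-likelihood, adjusted over all features). The values below are the gonad difference less that mean, on the log2 scale, with SE.

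More positive in gonad were Dnaja4 at 3.60 ± 0.55 (edgeR adjusted p = 0.000472), Dnajc4 at 3.49 (0.000123), Dnajb9 TRINITY_DN145014_c2_g1 at 3.39 (0.000292), DNAJC7 TRINITY_DN134791_c2_g1 at 3.35 (0.000108) and AHSA1 TRINITY_DN142688_c4_g1 at 3.27 (0.000431). More negative were hsp90a.1 TRINITY_DN133179_c2_g1 at -3.69 (0.00119), Ahsa1 at -3.12 (0.00236), hspb1 at -2.81 (0.005), Tcp11l2 at -2.50 (0.00319) and Dnajb9 TRINITY_DN119772_c0_g1 at -2.38 (0.00226). The hspb1 call was lost without female gonad replicate 1 (adjusted p = 0.0578).

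Among HSP90, chaperonin and TRiC features the difference was 2.43 for HSPD1 TRINITY_DN146429_c0_g2, 1.89 for HSPD1 TRINITY_DN146429_c0_g1 and 1.85 for Trap1. It was 1.72 for hsp90ab1 TRINITY_DN131104_c2_g5, 1.69 for CCT7 and 1.49 for CCT5 TRINITY_DN149035_c1_g3. None of these was itself called between female and male gonad. The hsp90ab1 call was lost without female gonad replicate 1, male gonad replicate 1 or male gonad replicate 2 (largest adjusted p = 0.218), and the CCT5 call without any 1 of 10 libraries (largest adjusted p = 0.247).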

How the results depend on the processing

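Counts of called members, both directions together, stayed within 1.5 times the reported count under every scaling, tool and filter run, with these exceptions. In brain against the other tissues 40 became 25 with limma on log2(FPKM + 1) and 23 on log2(FPKM + 0.1). Between female and male liver 3 became 1 with listed totals, 1 with recovered totals, 8 with DESeq2, 5 with a replicate block within sex, and 0 with either limma fit, where 19 and 17 members had an unadjusted p below 0.05 (15 with edgeR). Between female and male muscle 6 became 14 with listed totals, 30 with recovered totals, 18 with DESeq2 and 25 with either limma fit (32 at an unadjusted p with edgeR). Calls over all features moved as well. In liver 237 higher and 216 lower in females became 1006 and 680 with DESeq2 and 424 and 334 with the block within sex. In muscle 196 higher and 285 lower became 554 and 893 with DESeq2 and 108 and 1953 with recovered totals. With limma on log2(FPKM + 1) they were 85 and 1352. Shares of all features at an unadjusted p are not given. The interaction count of 34 became 22 with either limma fit. Splits by direction could change within the limit of 1.5 times. Between female and male brain 12 higher and 13 lower became 1 and 36 with listed totals. Of all features 1159 were then higher and 5853 lower. In muscle against the other tissues 37 higher and 14 lower became 23 and 30 with recovered totals, with 1574 and 8005 of all features. Leaving out each library in turn gave 2 to 27 members between female and male brain, 0 to 11 in liver, 22 to 42 in gonad and 0 to 11 in muscle. Deviations of same-numbered libraries of different tissues correlated from 0.177 to 0.598 in males, over 0.1 for all 6 pairs. In females they correlated from -0.329 to 0.238. Between female and male libraries, which cannot share a fish, the range was -0.087 to 0.31, which overlaps that of the males. Whether equal numbers mark 1 fish cannot be told from these values, and no label ties a number to a fish. The replicate block moved no other count by over 1.5 times. In gonad against the other tissues, TCP11L1 came to 0.14 with recovered totals and 0.20 and 0.23 with the limma fits, hsp90a.1 TRINITY_DN130300_c3_g2 to 0.028, 0.14 and 0.14, and hsp90ab1 TRINITY_DN131104_c2_g5 to 0.013, 0.004 and 0.005. The inducible hsp70 between female and male gonad ranged from -4.02 to 0.35 when 1 library was left out. Except where a library was left out, the cause was not tested. A filter of 10 counts in 2 libraries removed no feature.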
